A study of Mus musculus with 11 samples.

Results

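Described here are 5 protein-coding genes of mouse inguinal white adipose tissue, Cpe, Plxdc1, Pianp, Kcnt1 and Nat8l, across 4 combinations of genotype and drug. They were chosen by measured values of these libraries, namely a rosiglitazone effect that differed most clearly between Raptor-deleted (KO) and control (WT) tissue. They are 5 of 52282 genes in the tables, and all 5 were among the 26960 genes that passed the filter on low counts. Group means of Cpe, Plxdc1 and Pianp were lower with rosiglitazone in WT and higher with it in KO, and those of Nat8l the reverse. Kcnt1 was higher with it in WT, and in KO its groups overlapped. The drug effect in KO alone is part of the difference that chose the genes, so its counts are a description only. There edgeR called 0 of the 5 genes, limma-voom 0 and DESeq2 4 (all but Kcnt1), and 4 had an unadjusted edgeR p under 0.05. Of all 26960 genes edgeR called 0.0148% (0.0111% higher, 0.00371% lower). DESeq2 called 364 genes and limma-voom 0, and 2254 had an unadjusted edgeR p under 0.05.

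Rosiglitazone binds and activates PPARγ, the nuclear receptor that drives the gene program of fat cells. Raptor is the scaffold of mTORC1, the kinase complex that couples nutrients and insulin to growth and lipid synthesis, and adipocytes lacking it store less lipid. The 5 genes have unlike roles. Cpe encodes carboxypeptidase E, which trims basic residues from peptide hormone precursors in secretory granules. Plxdc1 (tumour endothelial marker 7) is a membrane protein that binds the secreted factor PEDF, and Pianp is a membrane ligand of the inhibitory receptor PILRα that also associates with GABA-B receptors. Kcnt1 is a potassium channel opened by intracellular sodium, and Nat8l makes N-acetylaspartate from aspartate and acetyl-CoA, a reaction known from neurons and from brown and white adipocytes.

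RNA was sequenced from 11 libraries of C57BL6/J mice aged 16 weeks that had eaten a high-fat diet for 8 weeks. All mice carried the floxed Raptor allele, and in KO mice a Cre recombinase under the adiponectin promoter was added, so that the other cells of the tissue kept the gene. The groups were WT on diet (3 libraries), WT with rosiglitazone at 30 mg/kg/day (3), KO on diet (2) and KO with rosiglitazone (3). Titles and treatment characteristics conflict in the 6 WT libraries, each title giving the other treatment; the characteristic was followed here, so every direction for rosiglitazone in WT, and the selection of the genes itself, depends on that choice. By the characteristic, 25 known PPARγ target genes had a median log2 fold change of 1.48 with rosiglitazone in WT, beside -0.05 over all genes. Of the 25, edgeR called 2 higher, DESeq2 13 and limma-voom 22, and none was called lower by these tools. At an unadjusted edgeR p under 0.05, 16 were higher. By the titles each of these signs is the opposite. Among all 26960 genes these tools called 418, 1253 and 4556 higher and 160, 728 and 2827 lower, and 4699 had an unadjusted edgeR p under 0.05. The labels do not say whether libraries came from separate animals, so p-values reflect the spread among libraries, part of which may be technical. Depth was 13035346 to 40925952 estimated reads. Rptor, the deleted gene, averaged 63.1 and 87.5 CPM (read counts scaled to a common library size) in KO on diet and with rosiglitazone, against 82.0 and 118 CPM in WT, counted over the whole gene and all cells. Adipocyte markers were present in every group (15 of 15), and genes of skeletal muscle held 1.24% of the reads of treated KO replicate 2 and 0.510% in WT on diet replicate 2, against at most 0.468% elsewhere.

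Cpe (ENSMUSG00000037852.8, GRCm38 chromosome 8, 64592542 to 64693054, minus strand) measured 20.5, 26.0 and 20.5 CPM in WT on diet and 8.88, 8.21 and 12.9 CPM in WT with rosiglitazone. In KO it measured 22.4 and 15.2 CPM on diet and 56.6, 83.8 and 69.1 CPM with rosiglitazone. The treated KO libraries were the highest and the treated WT libraries the lowest, and neither overlapped another group, while the diet groups of both genotypes overlapped. Rosiglitazone went with a log2 fold change of -1.16 ± 0.24 (SE) in WT and 1.89 ± 0.28 in KO. In TPM, a scale that accounts for transcript length, treated KO libraries lay at 17.4 to 36.6 and overlapped the 19.3 to 26.7 of KO on diet. All genes shifted on that scale, where the median of the drug effect in KO was -0.594, against -0.01 in counts.

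Cpe reads were spread over a full-length coding transcript, Cpe-201 (2117 bases), and a short noncoding one, Cpe-203 (550 bases), which starts at an exon of its own near the end of the gene. That exon, chromosome 8, 64596639 to 64596677, is shown because it sets the short transcript apart from the full-length one. Capitals mark its 39 bases, lower case the first 30 bases of the exon it is spliced to, from the GRCm38 minus strand.
Cpe-203: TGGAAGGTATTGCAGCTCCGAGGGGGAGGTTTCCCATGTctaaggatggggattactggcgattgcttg
Estimated reads of Cpe-203 were 49, 90 and 59 in WT on diet, 7, 15 and 17 in WT with rosiglitazone, 100 and 116 in KO on diet, and 99, 72 and 0 in KO with rosiglitazone. KO with rosiglitazone replicate 3 thus had none of its 1111 Cpe reads there.

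Plxdc1 (ENSMUSG00000017417.14, GRCm38 chromosome 11, 97923238 to 97986444, minus strand) measured 3.34, 3.05 and 5.74 CPM in WT on diet and 1.42, 0.871 and 1.97 CPM in WT with rosiglitazone. It measured 4.43 and 4.79 CPM in KO on diet and 14.5, 14.7 and 18.8 CPM in KO with rosiglitazone. Treated KO stood above all other libraries and treated WT below them, and the 2 diet groups overlapped. The log2 fold change with rosiglitazone was -1.53 ± 0.33 in WT and 1.79 ± 0.37 in KO. On the TPM scale the order of the groups was the same, from 0.587 to 0.780 in treated WT up to 3.29 to 7.12 in treated KO.

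Pianp (ENSMUSG00000030329.11, GRCm38 chromosome 6, 124996694 to 125003096, plus strand) gave the clearest ladder in counts. WT with rosiglitazone was lowest at 0.640, 0.467 and 0.698 CPM, followed by WT on diet at 1.91, 1.87 and 2.09 CPM. KO on diet stood at 3.99 and 2.80 CPM and KO with rosiglitazone at 8.17, 7.0 and 9.21 CPM, so no group overlapped the next. These are 11 to 148 estimated reads per library, the fewest in treated WT. Log2 fold changes with rosiglitazone were -1.71 ± 0.25 in WT and 1.26 ± 0.26 in KO. In TPM the KO groups overlapped each other (2.27 to 7.74 with the drug, 1.58 to 2.85 without), as did KO and WT on diet.

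Pianp was the one gene of the 5 with promoter windows in the RefSeq table used (GRCm38.p6), each covering 250 bases before to 50 bases after an annotated start. Its transcripts start at upstream positions (124996694 to 124997075) and at downstream ones (124998437 to 124999662). Both kinds held reads in each of the 4 groups, although the split could not be read firmly at this depth. In KO with rosiglitazone, 102, 52 and 84 reads were assigned to upstream starts and 29, 41 and 64 to downstream starts, against 40 and 26 and then 41 and 44 in KO on diet. In WT on diet the same counts were 16, 31 and 24 against 28, 7 and 16. In WT with rosiglitazone they were 11, 0 and 11 against 7, 15 and 0, so that replicate 2 had all its reads at downstream and replicate 3 at upstream starts. The upstream window (chr6:124996470-124996769, plus strand) and the most downstream one (chr6:124998360-124998659, plus strand) are shown as 1 example of each kind. Pianp-206, with 79, 49 and 80 reads in KO with rosiglitazone, starts at 124996862, past the end of the first window. Pianp-207, with 0, 34 and 43 reads there, starts at 124998437, ahead of the start on which the second window is set. The window set on the Pianp-207 start itself (chr6:124998187-124998486, plus strand) is not shown.
Pianp upstream start: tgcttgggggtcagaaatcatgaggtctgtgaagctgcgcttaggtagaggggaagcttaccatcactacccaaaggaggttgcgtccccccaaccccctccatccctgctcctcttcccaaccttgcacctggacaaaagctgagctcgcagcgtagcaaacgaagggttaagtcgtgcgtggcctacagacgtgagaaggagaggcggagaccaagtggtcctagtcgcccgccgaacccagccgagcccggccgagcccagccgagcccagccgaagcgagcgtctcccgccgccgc
Pianp downstream start: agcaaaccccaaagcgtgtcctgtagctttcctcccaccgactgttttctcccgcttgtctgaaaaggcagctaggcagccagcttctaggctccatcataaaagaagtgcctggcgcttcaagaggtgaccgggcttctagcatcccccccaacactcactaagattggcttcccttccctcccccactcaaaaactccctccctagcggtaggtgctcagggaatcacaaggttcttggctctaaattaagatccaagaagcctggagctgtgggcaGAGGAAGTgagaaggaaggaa
Capitals in the second window mark 1 match to GAGGAAGT, a core bound by the myeloid factor PU.1, searched on both strands and present in 3.2% of 32851 mouse promoter windows of this length. The upstream window and the window set on the Pianp-207 start had no match to it. The element of the kind PPARγ binds, 2 copies of AGGTCA in a row with any 1 base between, had no match in the 3 Pianp windows and is in 0.0396% of all windows. A single AGGTCA (16.3% of windows, those with the repeat included) and the E-box CACGTG (7.15%) had none either, on both strands. A match here is a description of the letters only.

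Kcnt1 (ENSMUSG00000058740.14, GRCm38 chromosome 2, 25863734 to 25918273, plus strand) was high in 1 group alone. It measured 10, 15 and 11.2 CPM in WT with rosiglitazone and at most 1.56 CPM in every other library. WT on diet held 1.56, 1.18 and 1.46 CPM, KO on diet 0.837 and 1.24 CPM and KO with rosiglitazone 0.623, 0.527 and 0.933 CPM, and these groups overlapped their neighbours in the order. The log2 fold change with rosiglitazone was 3.10 ± 0.28 in WT, an 8.58-fold difference, and -0.57 ± 0.33 in KO. The KO values rest on 7 to 31 estimated reads per library, against 176 to 482 in treated WT. On the TPM scale treated WT again stood alone, at 3.37 to 5.04 against at most 1.42.

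Most Kcnt1 reads in treated WT were assigned to transcripts annotated as retained introns. Their share was 81.9% (exact 95% binomial interval 76.9 to 86.2), 69.4% (65.2 to 73.6) and 95.8% (91.2 to 98.0) in the 3 libraries, where intervals cover counting error only. In the other 8 libraries the share ran from 32.3% to 100%, but of 7 to 36 reads, with intervals as wide as 3.67% to 71.0%, and the share was not tested between groups. A single transcript, Kcnt1-206 (6639 bases), held 181, 256 and 130 of the 282, 482 and 176 reads. It keeps an intron of 1990 bases (chromosome 2, 25888859 to 25890848). The edges of that intron are shown, chr2:25888819-25888938 and chr2:25890769-25890888 on the plus strand, with 80 intron bases in capitals and 40 bases of the flanking exon in lower case.
Kcnt1-206 upstream edge: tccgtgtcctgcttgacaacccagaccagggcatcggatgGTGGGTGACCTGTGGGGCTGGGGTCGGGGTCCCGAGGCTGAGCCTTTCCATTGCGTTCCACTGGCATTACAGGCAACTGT
Kcnt1-206 downstream edge: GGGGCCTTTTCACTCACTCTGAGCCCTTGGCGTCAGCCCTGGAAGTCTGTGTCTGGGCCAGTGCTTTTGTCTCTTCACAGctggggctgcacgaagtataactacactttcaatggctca
The intron opens with GT and closes with AG, the usual splice signals. Reads assigned to coding transcripts were 44, 139 and 4 in treated WT and 0 to 16 elsewhere.

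Nat8l (ENSMUSG00000048142.9, GRCm38 chromosome 5, 33995984 to 34005916, plus strand) had the deepest reads of the 5, at 669 to 7667 per library. It measured 83.9, 71.2 and 72.4 CPM in WT on diet and 221, 239 and 194 CPM in WT with rosiglitazone. In KO it measured 172 and 86.2 CPM on diet, the widest spread of its groups, and 51.2, 58.7 and 41.6 CPM with rosiglitazone. Treated WT was highest and treated KO lowest, with no overlap between adjacent groups in CPM. In TPM, KO on diet (16.5 to 39.2) overlapped both treated WT (28.4 to 45.0) and WT on diet (13.2 to 19.7). Log2 fold changes with rosiglitazone were 1.52 ± 0.25 in WT and -1.35 ± 0.27 in KO, and without KO on diet replicate 1 the value in KO was -0.77. Per length, Nat8l and Cpe were the most abundant of the genes, with group means of 6.10 to 37.2 TPM and 5.97 to 28.8 TPM, and the other 3 stayed below 5 TPM.

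**Figure D1:**
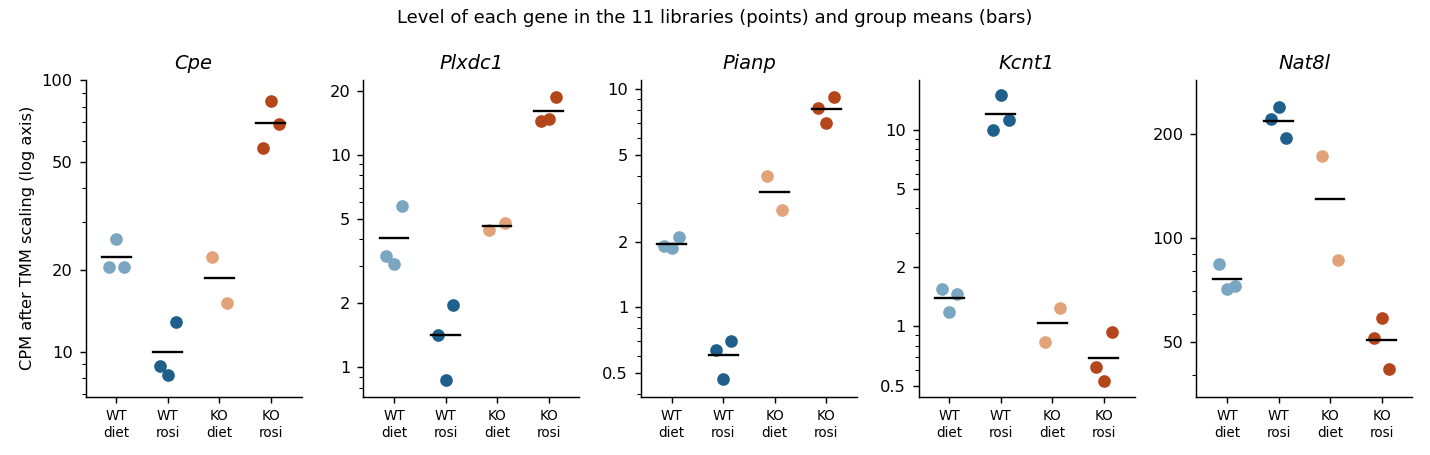
Level of the 5 genes in CPM after TMM scaling (log axis, each panel with its own range) in WT and KO libraries on diet or with rosiglitazone; points are libraries and bars are group means. Cpe, Plxdc1 and Pianp are highest in treated KO (56.6 to 83.8 CPM for Cpe) and lowest in treated WT, Kcnt1 stands out in treated WT only (10 to 15 CPM) and Nat8l is highest in treated WT and lowest in treated KO.

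Put as 1 number, the drug effect in KO minus that in WT, the log2 difference was 3.05 ± 0.37 for Cpe, 3.32 ± 0.49 for Plxdc1, 2.97 ± 0.36 for Pianp, -3.67 ± 0.42 for Kcnt1 and -2.88 ± 0.37 for Nat8l. These values chose the genes and support nothing further. Over all genes edgeR called 28 in this contrast, 0.104% of those tested, 23 higher (0.0853%) and 5 lower (0.0185%), and the 5 genes are among them because they were chosen from it. Even so, their own adjusted p-values lay close to the threshold. In this contrast DESeq2 called all 5 (531 over all genes) and limma-voom called 3 of them (41 over all genes). By edgeR all 5 were above 0.05 with the replicate block (0.0692 to 0.0737), with the muscle covariate (0.0527 to 0.0952) and without the 2 libraries richest in muscle reads (0.205 to 0.21), and by limma on TPM as well (0.135 to 0.273). When each library was left out in turn, 3 of 11 fits kept Cpe, Pianp, Kcnt1 and Nat8l past the threshold and 2 of 11 kept Plxdc1: those without KO on diet replicate 1 (not for Plxdc1) or 2, or WT on diet replicate 1. For rosiglitazone in WT 2.14% of genes were called (0.593% lower). Ranked by edgeR p in the drug difference between genotypes, the 5 genes stood at 4 (Kcnt1), 5 (Pianp), 6 (Cpe), 10 (Nat8l) and 26 (Plxdc1). The genes next after Plxdc1 were Wdr91 (1.55 ± 0.23), Olfr1033 (-2.16 ± 0.32) and Acaca (-4.24 ± 0.64). In 27 of the 28 called genes, the drug effects in WT and KO had opposite signs. A large difference between the 2 effects favours opposite signs by itself, and the share over all genes was not counted. The count therefore describes the selection only. On the log2(TPM + 1) scale the differences kept their direction with smaller size for 4 genes, at 1.82, 1.43, 1.59 and -1.95 for Cpe, Plxdc1, Pianp and Kcnt1, and stood at -3.04 for Nat8l.

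**Figure D2:**
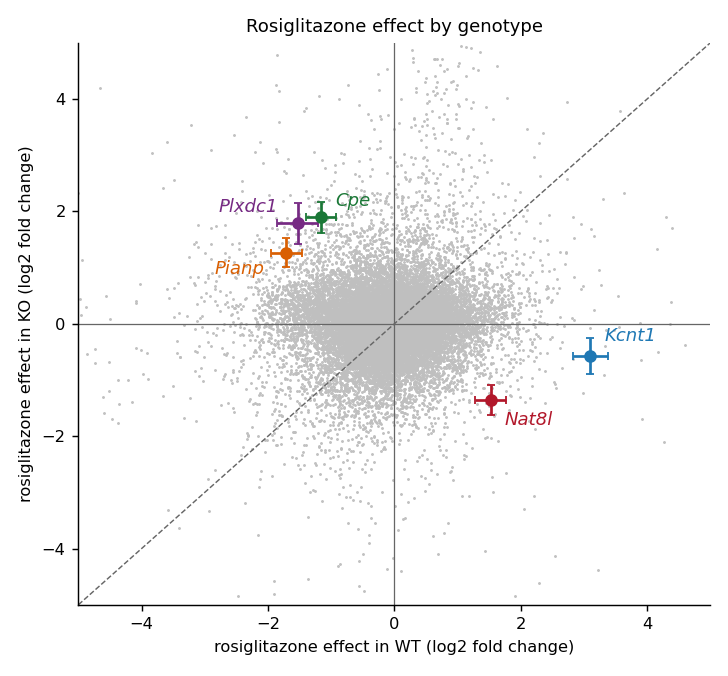
Log2 fold change with rosiglitazone in WT (horizontal) and in KO (vertical) for the genes tested, grey points, with the 5 genes in colour and bars of 1 SE; the dashed line marks equal effects, and 242 genes lie outside the axes. Cpe, Plxdc1 and Pianp sit in the quadrant of lower in WT and higher in KO, and Kcnt1 and Nat8l in the opposite one.

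With treatments averaged, edgeR called all 5 genes between genotypes. This average weighs the KO against WT difference on diet (0.444) and with rosiglitazone (0.556). The genes were chosen by the difference between those same effects. With equal variance the average is uncorrelated with that difference, but both use the same estimate of each gene's spread. The p-values here therefore describe chosen genes and are not independent support. Pianp was 5.44-fold higher in KO (log2 2.44 ± 0.18, edgeR adjusted p = 0.000233), Plxdc1 4.11-fold higher (2.04 ± 0.24, adjusted p = 0.0011) and Cpe 2.73-fold higher (1.45 ± 0.18, adjusted p = 0.00124). Kcnt1 was 5.52-fold lower (-2.46 ± 0.22, adjusted p = 0.000364) and Nat8l 1.78-fold lower (-0.83 ± 0.19, adjusted p = 0.0171). Such calls were common: 14.8% of tested genes passed, 5.27% higher and 9.48% lower. The averaged difference came mainly from treated tissue. KO against WT stood at 2.81, 3.52 and 3.76 for Cpe, Plxdc1 and Pianp and at -4.10 and -2.11 for Kcnt1 and Nat8l with rosiglitazone, against -0.25, 0.19, 0.79, -0.42 and 0.77 in the same order on diet. Nat8l thus lay on opposite sides of 0 on diet and with the drug, and its averaged call was lost without any 1 of the 6 rosiglitazone libraries (KO or WT replicate 1, 2 or 3, adjusted p = 0.0628 to 0.1, log2 -0.61 to -0.71). Without each library in turn Cpe, Plxdc1, Pianp and Kcnt1 stayed past the threshold.

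The drug effect averaged over genotypes is likewise made of the drug effects whose difference chose the genes, and it is given with no test. It stood at 0.20 ± 0.18 for Cpe, -0.05 ± 0.23 for Plxdc1, -0.39 ± 0.17 for Pianp, 1.47 ± 0.21 for Kcnt1 and 0.24 ± 0.18 for Nat8l. For Kcnt1 it combines 3.10 in WT with -0.57 in KO. Without KO on diet replicate 1 the value for Nat8l was 0.76 ± 0.14. Over all genes 0.909% were called in this contrast, 0.694% higher and 0.215% lower.

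**Figure D3:**
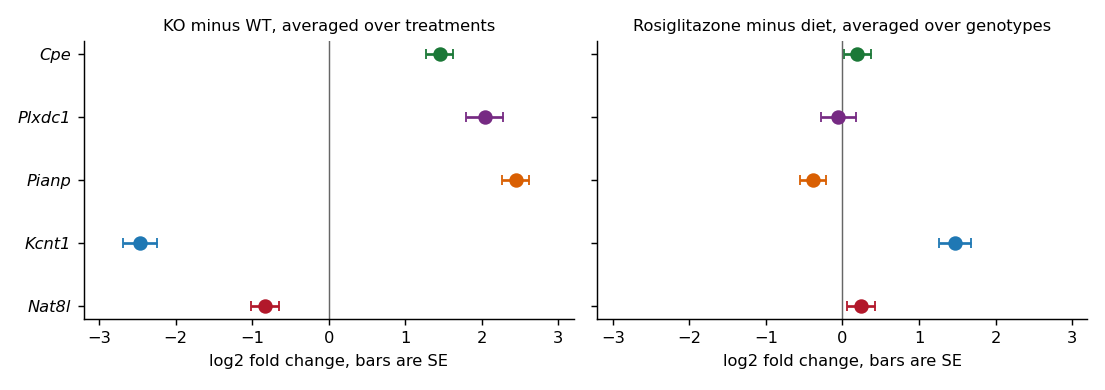
Log2 fold change of the 5 genes for KO against WT averaged over treatments (left) and for rosiglitazone against diet averaged over genotypes (right); bars are 1 SE. Genotype effects run from 2.44 for Pianp to -2.46 for Kcnt1, while on the right 4 genes lie between -0.39 and 0.24 and Kcnt1 at 1.47.

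The make-up of each gene's RNA was not used by the rule. Cpe, Plxdc1 and Nat8l had enough reads and more than 1 sizeable transcript, and the share of TPM in the leading transcript was compared over libraries in 6 exact permutation tests (two-sided, 462 regroupings each). Cpe-201 took 62.2%, 50.4% and 54.7% of Cpe TPM in WT on diet and 87.4%, 77.1% and 70.0% in WT with rosiglitazone. It took 42.7% and 31.8% in KO on diet and 63.5%, 75.3% and 100% in KO with rosiglitazone. Every treated library lay above every library on diet. The mean was 78.9% ± 13 with the drug (SD, n = 6) and 48.3% ± 11.6 without (SD, n = 5), a difference of 30.5 percentage points (exact permutation p = 0.00433, adjusted over the 6 tests p = 0.026). Measured in estimated reads the difference was 13.5 points (adjusted p = 0.013 by exact permutation). Without KO on diet replicate 1 or 2 it was 29.1 or 26.4 points, each with an adjusted p of 0.0571 by exact permutation. With WT treatments taken from the titles it was 5.85 points (adjusted p = 0.74). Between genotypes the share differed by -4.3 points (adjusted p = 0.831 by exact permutation). The exon of its own is 39 of the 550 bases of Cpe-203, so the share rests largely on estimated assignment of reads. Whether libraries differed in coverage toward the end of the gene or in RNA quality was not tested.

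The leading transcripts of the other genes gave no call. Plxdc1-201 held 51.2% ± 18.5 (SD, n = 6) with rosiglitazone and 49.1% ± 14.7 (SD, n = 5) without, and 56.1% in KO against 45.4% in WT. Nat8l-201 held 89.4% ± 8.27 with the drug and 83.7% ± 13.7 without (SD, n = 6 and 5), and 89.5% in KO against 84.5% in WT. The 4 adjusted p-values were 0.753 to 0.831 by exact permutation. Pianp and Kcnt1 had too few reads in some libraries for this test, as few as 11 and 7.02.

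**Figure D4:**
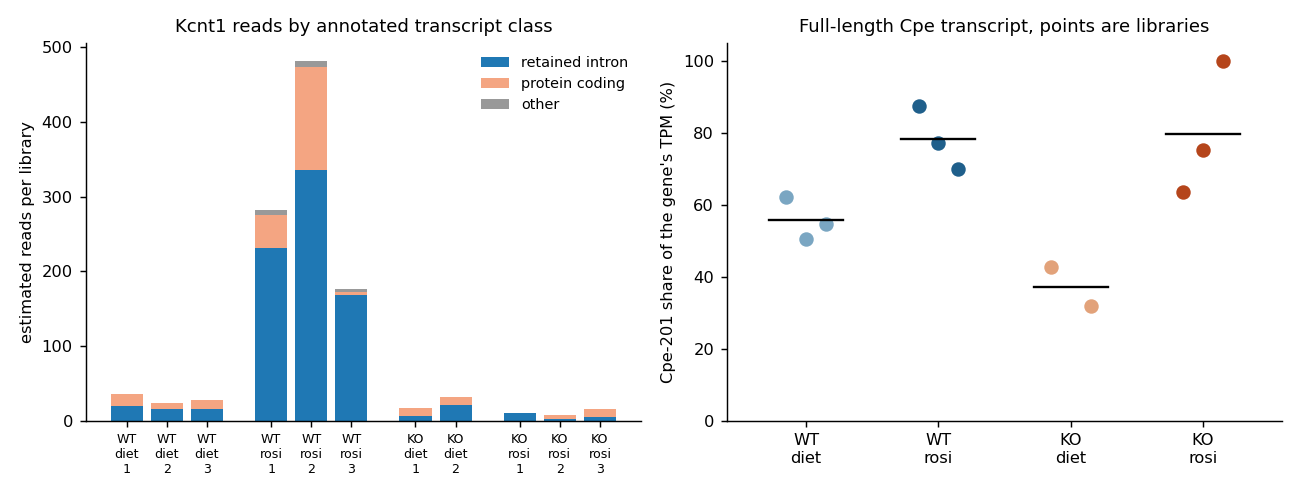
Left, estimated Kcnt1 reads per library (bars, not scaled for depth) by annotated transcript class; treated WT libraries hold 282, 482 and 176 reads, most of them in retained-intron transcripts, and the other libraries at most 36. Right, percent of Cpe TPM in the coding transcript Cpe-201, points for libraries and bars for group means; the 6 treated libraries (63.5% to 100%) lie above the 5 on diet (31.8% to 62.2%).

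Across the 11 libraries the 5 genes fell into the sets that their choice implies, and the correlations are given as a description of libraries that share their groups. Pearson's r of log2 CPM was 0.927 to 0.969 among Cpe, Plxdc1 and Pianp, 0.825 between Kcnt1 and Nat8l, and -0.919 to -0.828 between the sets. Of 13936 candidate genes the 3 most like Cpe were Cadm1 (r = 0.966), a cell adhesion molecule, Iqgap1 (0.962), an actin scaffold, and Gpr137b (0.961), a lysosomal membrane protein. Plxdc1 was most like Cadm1 (0.986), Mfhas1 (0.985) and the myosin Myo1e (0.980). Pianp was most like Cyth4 (0.996), the actin capping protein Capg (0.993) and Soat1 (0.993), which esterifies cholesterol. Cyth4 measured 44.0 and 22.1 CPM in WT on diet and with rosiglitazone and 61.9 and 115 CPM in KO (group means), the same ladder at a higher level.

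Kcnt1 was most like the tubulin acetyltransferase Atat1 (0.974), Exd1 (0.974) and the deacetylase Hdac6 (0.971). These differed less than Kcnt1 did: Atat1 averaged 13.7 CPM in treated WT and 5.34 to 6.13 CPM in the other groups. Nat8l was most like Tspan18 (0.949), the methyltransferase Etfbkmt (0.938) and the chaperone Dnaja1 (0.932). Tspan18 averaged 73.0 CPM in treated WT, 50.1 and 41.8 CPM in KO and WT on diet and 22.7 CPM in treated KO. The nearest tested protein-coding genes on either side of the 5, 10 in all, had edgeR adjusted p-values of 0.615 to 0.951 in the drug difference between genotypes, and their values ran from -0.43 for Tll1 beside Cpe to 1.05 for Arl5c beside Plxdc1. Poln, which begins 1262 bases after Nat8l, stood at -0.15 ± 0.50.

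Among other genes of peptide processing, 17 of 22 listed were tested, and 4 rose and 1 fell in KO with treatments averaged, where 5.27% of all genes rose and 9.48% fell. Aebp1 (1.69 ± 0.30, edgeR adjusted p = 0.00617), Cpz (1.95 ± 0.37), Cpxm1 (1.00 ± 0.19), all of the carboxypeptidase family of Cpe, and the glutaminyl cyclase Qpct (1.74 ± 0.37) were the higher ones, and the convertase Pcsk5 (-1.36 ± 0.29) was lower. None of the 17 passed in the drug difference between genotypes by edgeR, DESeq2 or limma-voom, with 1 at an unadjusted p under 0.05. The list's medians were 0.11 for genotype and -0.03 for the drug difference, beside 0.05 and 0.00 over all genes. Markers of progenitors and fibroblasts moved with these genes: 4 of 10 rose in KO (Pdgfra, Dpp4, Ly6a and Col1a1), with a list median of 1.02. They summed to 2831 to 5817 CPM in WT on diet, 2115 to 3054 in WT with rosiglitazone, 3142 and 9187 in KO on diet and 4887 to 9464 in KO with rosiglitazone, none of the 10 was at 0 reads in a group, and their part in the result was not tested.

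For Plxdc1, its paralog Plxdc2 (44.7 to 53.3 CPM by group mean) and the shared ligand gene Serpinf1, which encodes PEDF (70.6 to 81.1 CPM), did not pass in any contrast. Of the 8 genes of this list, the anthrax toxin receptor Antxr1 (1.01 ± 0.21, edgeR adjusted p = 0.0129) and the stromal marker Cd248 (1.3 ± 0.31, 0.0217) rose in KO, and the lipase Pnpla2, also a PEDF receptor, fell (-1.82 ± 0.30, 0.00466). Of Pianp's receptors and partners 6 of 9 were tested and edgeR called none in any of the 7 contrasts. In the averaged genotype effect 1 of them had an unadjusted p under 0.05 and DESeq2 and limma-voom called 0, and in the drug difference all 3 counts were 0. The most abundant were Kctd12 (195 to 268 CPM by group mean) and Gabbr1, a GABA-B receptor subunit (25.6 to 33.0 CPM), while Pilra, the receptor itself, stayed at 1.68 to 2.92 CPM.

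Potassium channel genes moved in both directions. Of 27 tested, 6 rose and 2 fell in KO with treatments averaged, among them Kcnk6 (0.91 ± 0.13, edgeR adjusted p = 0.00282), Kcnk5 (1.27 ± 0.25), Kcna2 (0.89 ± 0.18) and, lower, Kcnk2 (-1.75 ± 0.32). With rosiglitazone averaged over genotypes 4 fell, Kcnj15 (-2.48 ± 0.40), Kcnj8 (-1.73 ± 0.32), Kcna1 (-1.32 ± 0.25) and Kcna2 (-1.08 ± 0.18), where 0.215% of all genes fell. Pericyte and smooth muscle markers moved with them, 2 of 10 falling (Rgs5 and Kcnj8, which both lists hold) with a median of -0.55, and so did Schwann cell markers, 1 of 10 falling (Cdh19) with a median of -0.76. By group the first summed to 750.8 to 1542, 542.5 to 611.5, 454.2 to 691.7 and 375.2 to 469.6 CPM and the second to 152.4 to 253.7, 140.8 to 161.7, 269.8 to 283.3 and 186.5 to 220.6 CPM (WT on diet, WT treated, KO on diet, KO treated). None of these markers was at 0 reads in a group, and their part in the result was not tested. The closest paralog of Kcnt1, Kcnt2, averaged 1.70 CPM in treated WT and 1.53 to 4.64 CPM in the other groups, and passed in no contrast. In the drug difference edgeR called 0 of the 27, with 5 at an unadjusted p under 0.05 (3 higher, 2 lower), and DESeq2 called 1 and limma-voom 0.

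Around Nat8l, 16 of 17 genes of aspartate, N-acetylaspartate and acetyl-CoA handling were tested, and 4 rose and 3 fell in KO with treatments averaged. The mitochondrial aspartate-glutamate carrier Slc25a13 (1.79 ± 0.17, edgeR adjusted p = 0.000427) and the aspartate aminotransferase Got1 (0.94 ± 0.21) were higher, and the citrate carrier Slc25a1 (-1.80 ± 0.30) and the acetyl-CoA synthetase Acss2 (-1.35 ± 0.26) lower. Slc25a13 was also the 1 list member that edgeR called in the drug difference (2.37 ± 0.34, adjusted p = 0.0448). There DESeq2 called 1 higher and 2 lower and limma-voom 1 higher and 1 lower, with 1 higher and 3 lower at an unadjusted edgeR p under 0.05. Aspa, which splits N-acetylaspartate, averaged 78.3 CPM in treated WT and 28.8 CPM in treated KO (-1.45 ± 0.42, adjusted p = 0.0452, where 15% of genes passed, 5.47% higher and 9.50% lower), against 32.0 and 49.4 CPM in WT and KO on diet. The 25 PPARγ target genes had a median of -1.35 in the drug difference, where edgeR called 0, DESeq2 1 and limma-voom 0, and 9 were lower at an unadjusted p under 0.05. With treatments averaged, 15 of the 25 fell in KO, including Pck1 (-2.95 ± 0.33) and Adipoq (-3.09 ± 0.45), where 9.48% of all genes fell. Fabp4, Lpl, Plin1, Cidec, Adipoq and Aqp7 are also in the list of mature adipocyte markers, so the 2 lists are not separate.

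Cell type markers moved with the genes in part. In a bulk sample, fewer cells of a type and less RNA per cell cannot be told apart. The 15 macrophage markers summed to 1046 to 1526 CPM in WT on diet, 752.2 to 940.6 in WT with rosiglitazone, 1453 and 4422 in KO on diet and 3841 to 4754 in KO with rosiglitazone. The treated KO libraries were high and the treated WT libraries low, as for Cpe, Plxdc1 and Pianp. In KO on diet the macrophage sum of replicate 1 (4422 CPM) lay within the range of treated KO, and that of replicate 2 (1453 CPM) within the range of WT on diet. In replicate 1 Cpe (22.4 CPM), Plxdc1 (4.43 CPM) and Pianp (3.99 CPM) lay below all treated KO libraries. In replicate 2 Cpe (15.2 CPM) and Pianp (2.80 CPM) were lower than in replicate 1, and Plxdc1 (4.79 CPM) was higher. With treatments averaged 14 of the 15 macrophage markers rose in KO, where 5.27% of all genes rose. In the drug difference their median was 1.19, against 0.00 over all genes. There edgeR called 1 of them higher, DESeq2 5 higher and 1 lower, and limma-voom 1 higher. At an unadjusted edgeR p under 0.05, 7 were higher and 1 lower. Over all genes these counts, in both directions, were 28, 531, 41 and 2840. The 15 mature adipocyte markers summed to 8436 to 26100 CPM and 24020 to 28070 CPM in WT on diet and with the drug, and to 2378 to 7361 CPM and 4660 to 5064 CPM in KO. With treatments averaged 13 of them fell in KO, where 9.48% of all genes fell. In the drug difference their median was -1.36, where edgeR and limma-voom called none and DESeq2 called 1 lower. At an unadjusted edgeR p under 0.05, 6 were lower. Whether cell make-up gave these patterns was not tested. The defining markers of both types, such as Csf1r and Adipoq, had reads in every group. Markers of neurons, where Cpe, Pianp, Kcnt1 and Nat8l are well known, summed to 4.518 to 7.61 CPM in all libraries, with Dbh at 0 reads in 3 groups, and of the 5 tested, edgeR, DESeq2 and limma-voom called 0 in the drug difference and 0 had an unadjusted p under 0.05.

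With the macrophage sum as a covariate, an alternative added after seeing the data, the averaged genotype effect was 1.02 ± 0.40 for Cpe (edgeR adjusted p = 0.117), 1.76 ± 0.56 for Plxdc1 (0.0714), 1.84 ± 0.37 for Pianp (0.0364), -2.22 ± 0.54 for Kcnt1 (0.0443) and -1.67 ± 0.38 for Nat8l (0.0416). The calls of Cpe and Plxdc1 were lost there. With the mature adipocyte sum as a covariate the values were 1.68, 1.6, 2.68 and -2.53 for the first 4, the call of Plxdc1 being lost at an adjusted p of 0.0551, and -0.11 ± 0.26 for Nat8l (adjusted p = 0.852). The drug differences that chose the genes were 2.75, 3.07, 2.49, -3.44 and -3.47 for Cpe, Plxdc1, Pianp, Kcnt1 and Nat8l with the macrophage covariate, where Plxdc1 was no longer called (edgeR adjusted p = 0.0652). With the mature adipocyte and B-cell covariates they were 3.16 and 3.19 for Cpe, 3.15 and 3.00 for Plxdc1, 3.08 and 3.14 for Pianp, -3.69 and -3.64 for Kcnt1, and -2.53 and -2.21 for Nat8l.

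**Figure D5:**
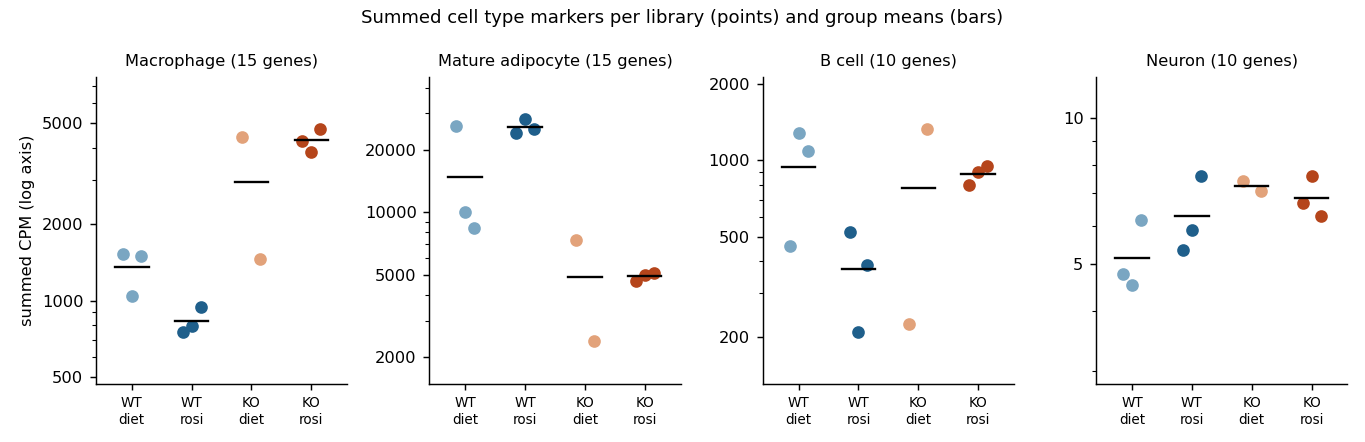
Summed CPM (log axis, each panel with its own range) of marker lists per library, points, with bars for group means. Macrophage sums are 3841 to 4754 CPM in treated KO, 1453 and 4422 CPM in KO on diet and 752.2 to 940.6 CPM in treated WT. Mature adipocyte sums are lower in KO than in treated WT, B-cell sums differ between libraries within groups, and neuron sums stay at 4.518 to 7.61 CPM.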

How the data were processed

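The labels' protocols give Trizol extraction and Nextera XT libraries for the inguinal fat, with no word on strand, so antisense reads cannot be told apart. The submitters' processing notes name Salmon, edgeR, mm10 and GRCm38, and no version was found in the sources used. The tables deposited by the authors, 1 per library, list an estimated count and a TPM for every transcript, per the file headers. Of 132288 transcripts 131892 (99.7%) matched GENCODE M21 (GRCm38) without version, giving 52282 genes. Sums of the estimated counts over a gene's transcripts were rounded. TPM values were summed per gene.

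The test was edgeR's quasi-likelihood test (edgeR 4.0.16, limma 3.58.1, R 4.3.3) over all 11 libraries on 4 group means, with TMM scaling, edgeR's default filter on low counts, Benjamini-Hochberg adjustment over 26960 genes and a threshold of 0.05. It was tested on simulated counts. Groups came from the genotype and treatment characteristics. No 2 replicates were alike (chi-square per degree of freedom 26.5 to 139). Contrasts share libraries. Transcript shares were compared for genes with at least 20 reads per library and 2 transcripts of at least 5% of TPM.

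The 5 genes and all lists were chosen with earlier results of these data known. Named beside them are list members called by edgeR (the smallest p first), the 2 most abundant where none was called, the 3 genes with the highest r (average log2 CPM of at least 1, prior count 2), the nearest tested neighbours and the 3 genes next in p. Kcnt2, Plxdc2, Serpinf1 and Pilra were named as paralog, ligand or receptor after their values were seen.

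Alternatives were RLE and upper-quartile scaling, DESeq2 1.42.0, limma-voom, limma-trend on log2(TPM + 1) with a pseudocount of 1 and TPM of at least 0.5 in 2 libraries, other filters, a replicate block, WT titles, marker covariates and each library left out. Those for macrophages and for the 2 libraries over 0.5% muscle reads were added after seeing the data.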

Additional observations from a re-analysis of the deposited data

Results flagged for a closer look

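The rosiglitazone effect differed between KO and WT tissue for each of the 5 genes by the edgeR interaction term over 11 libraries. The log2 difference, KO minus WT, was 3.05 for Cpe, 3.32 for Plxdc1, 2.97 for Pianp, -3.67 for Kcnt1 and -2.88 for Nat8l. These differences chose the genes, so they are listed as values and support nothing beyond the selection. All 5 calls were lost with the replicate block, on TPM, with the muscle covariate and in most of the 11 fits that left out 1 library. By limma-voom 3 of the 5 were called.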

How the results depend on the processing

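Counts of genes called moved far more than the values of the 5 genes. Apart from WT treatments taken from titles, no alternative turned the direction of any of the 5 drug differences, including those without each library in turn: Cpe 2.80 to 3.36, Plxdc1 2.98 to 3.61, Pianp 2.73 to 3.25, Kcnt1 -3.95 to -3.36 and Nat8l -3.29 to -2.29. Causes of the changes given here were not tested. Depth limits Kcnt1 in KO and Pianp in treated WT, with 7 to 31 and 11 to 18 reads a library.

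With WT treatments taken from titles, all 5 drug differences moved, to 0.73 for Cpe, 0.26 for Plxdc1, -0.45 for Pianp, 2.53 for Kcnt1 and 0.17 for Nat8l, of which edgeR called Kcnt1 alone (adjusted p = 0.0426, the others 0.377 to 0.87). The drug effects in WT became 1.16, 1.53, 1.71, -3.10 and -1.52 for Cpe, Plxdc1, Pianp, Kcnt1 and Nat8l. In the same order the averaged drug effects were 1.49, 1.65, 1.51, -1.98 and -1.45. Turning the sign in WT makes that average much like the difference that chose the genes, so it is given with no test. The Cpe-201 share differed by 5.85 points.

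Of 28 genes called in the drug difference, upper-quartile scaling gave 44 (28 higher, 16 lower, against 23 and 5), DESeq2 531, TPM 15 (2 higher, 13 lower), no filter 47, 1 CPM in 3 libraries 44, titles 154, the muscle covariate 1, the adipocyte covariate 652, the B-cell covariate 289, the macrophage covariate 374 and leaving out the 2 libraries richest in muscle reads 1. For rosiglitazone in WT (578), the same settings gave DESeq2 1981, voom 7383, TPM 31, muscle 268, adipocyte 1875, B-cell 1241, macrophage 1640 and 1 without the 2 libraries. For rosiglitazone in KO (4) they gave upper-quartile 14, DESeq2 364, voom 0 (1166 at an unadjusted p under 0.05), TPM 32, no filter 20, 1 CPM 2, adipocyte 1053, B-cell 290, macrophage 297 and 1 without the 2 libraries. For KO against WT on diet (37) they gave upper-quartile 77, DESeq2 736, voom 3, TPM 61, no filter 75, titles 2886, muscle 10, adipocyte 3005, B-cell 1695, macrophage 66 and 2 without the 2 libraries. With rosiglitazone (4037) the counts were voom 9275, titles 624, muscle 2645, adipocyte 1922 and 1560 without the 2 libraries. The averaged drug effect (245) had upper-quartile 458 (288 higher, 170 lower, against 187 and 58), DESeq2 1556, voom 1141, TPM 83 (14 higher, 69 lower), titles 44, muscle 35, adipocyte 2477, B-cell 1809, macrophage 865 and 4 without the 2 libraries. The averaged genotype effect (3978, 1422 higher and 2556 lower) had TPM 2043 (234 higher, 1809 lower), adipocyte 2778 (1869 higher, 909 lower), muscle 1783, macrophage 2072 and 2212 without the 2 libraries. TPM and upper-quartile scaling turned the split for rosiglitazone in KO from 3 higher and 1 lower to 1 and 31 and to 7 and 7. On TPM it was 196 and 3430 for KO against WT with rosiglitazone (1476 and 2561 in counts), 31 and 30 on diet (7 and 30), and 17 and 14 for rosiglitazone in WT (418 and 160), and the median of all genes moved to -0.46 in the drug difference.

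Deviations of same-numbered libraries from their group means gave r = -0.42 to 0.61 over 15 pairs, 6 of them over 0.1. The 30 other pairs gave r = -0.61 to 0.42. With 2 or 3 libraries in a group these values mirror each other, so they cannot show whether a shared number marks a pairing. With the replicate block the counts were 1 for the drug difference, 1 for rosiglitazone in KO, 1 for KO against WT on diet and 100 for the averaged drug effect. All 5 drug differences lost their call there (edgeR adjusted p = 0.0692 to 0.0737). Nat8l lost its averaged genotype call with the muscle covariate (-0.75) and without the 2 libraries (-0.88).

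Leaving out each library in turn gave 1 to 348 genes for the drug difference, 18 to 2779 for rosiglitazone in WT, 1 to 145 in KO, 2 to 250 for KO against WT on diet, 1498 to 5919 with rosiglitazone, 10 to 1199 for the averaged drug effect and 1847 to 6843 for the averaged genotype effect. Leading transcript shares, drug minus diet, ranged over 26.3 to 34.0 points for Cpe, -1.39 to 8.88 for Plxdc1 and 0.26 to 8.74 for Nat8l. KO minus WT, they ranged over -13.6 to 3.42, 5.18 to 15.5 and 0.51 to 8.71 points in the same order.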
